A study of Mus musculus with 12 samples.

Results

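The genes of the mitochondrial respiratory chain and ATP synthase were described in 4T1-LUC mouse mammary tumours, with those encoded in the mitochondrial genome set against those encoded in the nucleus. Members were chosen by symbol: names starting with mt-, and names of the Nduf, Cox4 to Cox8, Uqcr, Cyc1, Sdh and Atp5 series. The rule found 102 of the 21899 genes in the table, 13 of them mitochondrial and 89 nuclear. The mitochondrial members belong to complex I (7), III (1), IV (3) and V (2), and the nuclear ones to complex I (37), II (4), III (9), IV (21) and V (18). Ndufa4 and Ndufa4l2 were placed in complex IV, where Ndufa4 is now known to belong. Atp5o is listed on 2 rows, and Cox5b-ps is a pseudogene.

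All 12 libraries came from tumours formed by the 4T1-LUC mouse breast cancer line, placed under the skin of BALB/c mice that were 4 to 6 weeks old. Each of the 4 groups has 3 libraries. Controls received 200 µl of corn oil by gavage, the curcumin group received curcumin at 100 mg/kg in corn oil, the swimming group received corn oil and swam for 30 min, and the combination group received curcumin and swam for 30 min. No tumour-free library was used here. The labels do not say whether libraries of a group came from separate animals, so the tests measure only the spread between these samples. Whole tumours hold host cells as well as cancer cells, so fewer cells of a type and less RNA per cell cannot be told apart.

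As background, the respiratory chain passes electrons from NADH (complex I) and succinate (complex II) through complex III and cytochrome c to oxygen at complex IV. Complexes I, III and IV pump protons, and ATP synthase (complex V) uses the proton gradient to make ATP. Mitochondrial DNA encodes core subunits of every complex except complex II and is read as long transcripts from each strand that are then cut into single RNAs, while all other subunits are nuclear and imported.

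Library totals ran from 15069348 to 17278826 counts. Markers of the tumour line were present: the 9 epithelial genes summed to 2877 to 3751 CPM (counts scaled to library size by TMM) over the 12 libraries. Libraries stood apart in other cells' markers. The 14 skeletal muscle genes summed to 284.6, 43.8 and 610 CPM in controls 1, 2 and 3, to 439 to 516 in curcumin, 72.4 to 265 in swimming and 128 to 135 in combination. The combination libraries were far more alike than the controls, with a biological coefficient of variation of 6.47% against 26.6%. Control 2 had the lowest and combination 2 the highest mitochondrial share, so results that rest on them are also given without them.

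Near-identical nuclear copies were found among annotated transcripts for 7 of the 13 mitochondrial genes, which bears on how their counts can be read. Unannotated copies were not sought, so a gene with no copy found may still have one. In the GENCODE vM21 transcripts (GRCm38), at least 97% identity over 50 bases or more was found for mt-Co1, mt-Co2, mt-Co3, mt-Atp6, mt-Nd3, mt-Nd4l and mt-Nd4. Apart from a second copy of mt-Co1 on chromosome 2, these copies lie side by side on chromosome 1 between 24611535 and 24616197 as unprocessed pseudogenes. The first 60 bases of mt-Co2 (MT, 7013 to 7696 in the table, plus strand) and of its copy Gm28661 are shown because no base separates them over 681 aligned bases. Those of mt-Nd3 (MT, 9459 to 9806) and Gm28438 differ at 1 base of 345, and bases 460 to 519 of mt-Co1 (MT, 5328 to 6872) are set beside Gm13340, which differs at 37 of 1545. Capitals mark the differing bases.
mt-Co2: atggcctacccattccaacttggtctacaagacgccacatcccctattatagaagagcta
Gm28661: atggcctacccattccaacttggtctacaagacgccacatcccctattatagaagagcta
mt-Nd3: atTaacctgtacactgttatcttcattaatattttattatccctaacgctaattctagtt
Gm28438: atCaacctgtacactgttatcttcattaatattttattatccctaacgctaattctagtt
mt-Co1: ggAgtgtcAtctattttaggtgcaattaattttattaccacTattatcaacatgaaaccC
Gm13340: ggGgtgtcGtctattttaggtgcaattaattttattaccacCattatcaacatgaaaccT
How reads that fit both places were counted is not given in the sources used here, so the counts of at least these 7 genes are uncertain.

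Per length, the mitochondrial genes spanned more than 5 orders of magnitude in the deposited FPKM values. The highest was mt-Co1, the catalytic core of complex IV, at a mean of 15243 FPKM over the 12 libraries, followed by cytochrome b (mt-Cytb) at 5628, mt-Nd1 at 4287, mt-Nd2 at 3489, mt-Nd5 at 1879 and mt-Nd4 at 1476. The light-strand gene mt-Nd6 stood at 364 FPKM. The lowest were the core subunits mt-Co2 (58.2) and mt-Co3 (37.8), subunit a of ATP synthase mt-Atp6 (15.8), mt-Nd4l (0.821), mt-Nd3 (0.658) and mt-Atp8 (0.0526). The genes with almost all of their transcript at 99.7% to 100% identity to a copy (mt-Co2, mt-Co3, mt-Atp6, mt-Nd3 and mt-Nd4l) all lay at or below 58.2 FPKM. The 5 genes with no copy found and any appreciable count lay at or above 364 FPKM. mt-Atp8 has no annotated copy but overlaps mt-Atp6, and the part of shared sequence in these levels was not tested. By count, mt-Co1 alone made up 54.2% of all mitochondrial counts and mt-Cytb 14.8%.

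**Figure D1:**
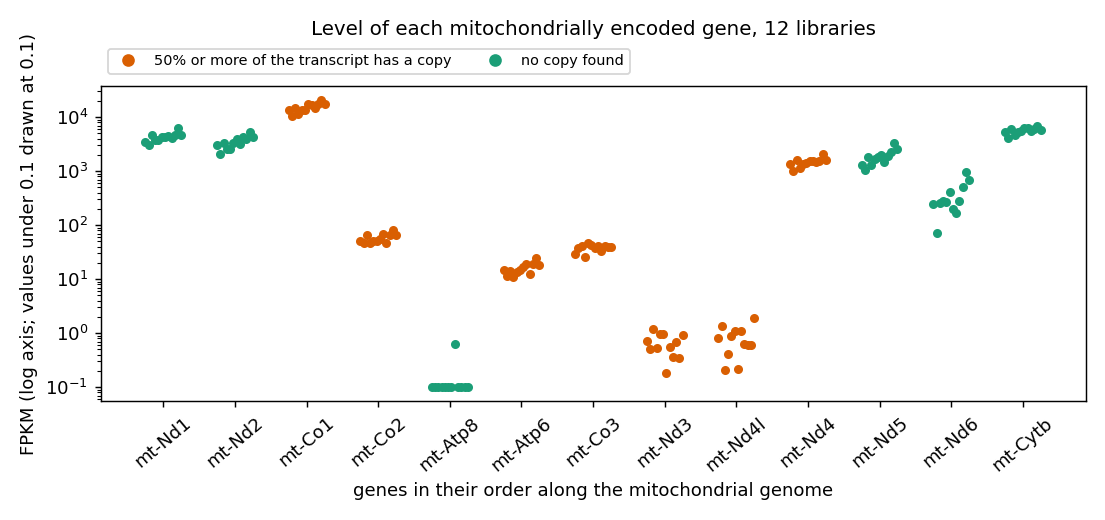
FPKM of each mitochondrially encoded gene (log axis; values under 0.1 drawn at 0.1) in the order of the genes along the mitochondrial genome, with 12 points per gene, from control 1 at the left to combination 3 at the right. Colour marks genes with 50% or more of the transcript in an annotated nuclear copy, and the genes from mt-Co2 to mt-Nd4l all lie below 100 FPKM while their neighbours lie far above.

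Per length, all nuclear members lay below mt-Nd6 (364 FPKM) and the mitochondrial genes above it, and they differed widely within a complex. They were not lower than every mitochondrial gene: the mitochondrial median of complex V was 7.93 FPKM. The nuclear median was 10.7 FPKM in complex I, 30.9 in II, 30.3 in III, 18.3 in IV without the pseudogene and 15.8 in V. The highest were the catalytic beta subunit of ATP synthase, Atp5b, at 215 FPKM and the common subunit 6a of complex IV, Cox6a1, at 196. The highest of complex III was the core protein Uqcrc1 with 54.8 FPKM, and of complex II the membrane anchor Sdhd with 40.6. In 68 of the 89 nuclear members no near-identical stretch of another gene was found. The nuclear genes lie on 19 chromosomes, and 28 of 89 overlap another gene in the table, mostly on the opposite strand.

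The summed share of mitochondrial counts was higher with swimming and highest with the combination, while that of the nuclear members differed little between groups. Mitochondrial genes took 3.79%, 2.96% and 4.30% of counts in controls, 3.34%, 3.87% and 4.06% with curcumin, 4.87%, 4.58% and 4.36% with swimming and 4.86%, 6.10% and 5.03% with the combination. All 6 libraries from mice that swam lay above all 6 that did not, although swimming 3 exceeded control 3 by little. Nuclear members took 0.476% ± 0.0216 (SD, n = 3) in controls, 0.482% ± 0.0097 with curcumin, 0.464% ± 0.0359 with swimming and 0.450% ± 0.0156 with the combination (SD, n = 3). The ranges overlap except that every curcumin library lay above every combination library. Mitochondrial counts per nuclear count averaged 7.75 ± 1.45, 7.82 ± 0.926, 9.94 ± 0.747 and 11.9 ± 1.91 in the same order (SD, n = 3). These sums are descriptions, since mt-Co1 dominates the mitochondrial counts.

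**Figure D2:**
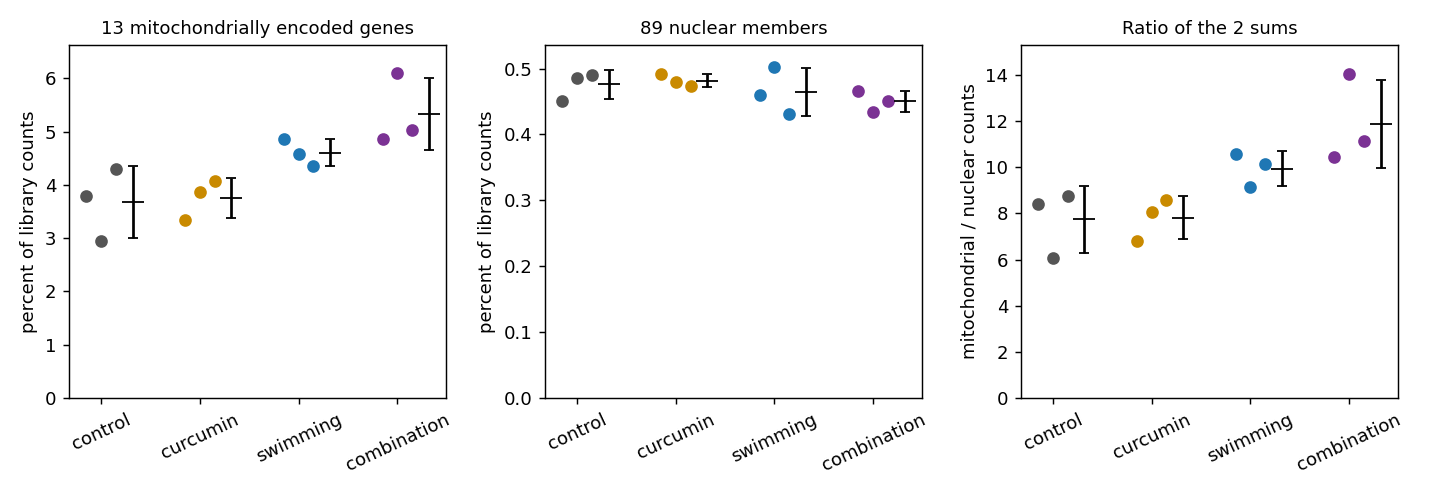
Percent of each library's counts in the 13 mitochondrial and the 89 nuclear members, and the ratio of the 2 sums, by group; points are libraries 1 to 3 and bars the mean and SD (n = 3). The mitochondrial share ran from 2.96% (control 2) to 6.10% (combination 2), and the nuclear share from 0.431% to 0.502%.

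In the tests, 91 members had enough counts, 10 mitochondrial and 81 nuclear. The 3 mitochondrial genes left out were mt-Atp8, with 0 counts in all libraries but swimming 2 (2 counts), mt-Nd3 (1 to 7 counts) and mt-Nd4l (1 to 9 counts). Left out of the nuclear members were the tissue-restricted isoforms Cox7a1, Cox8b, Cox8c, Cox7b2 and Cox6b2, Ndufb11b with 1 count in all, and both rows of Atp5o, which encodes the subunit that joins the stalk of ATP synthase to its head. One Atp5o row held 2 to 13 counts per library and the other 0, and the 2 rows overlap each other on chromosome 16, so Atp5o is uncertain. Genes were tested with edgeR's quasi-likelihood test over all 12 libraries and called at a Benjamini-Hochberg adjusted p of 0.05 or below over 13638 genes.

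Combined curcumin and swimming raised 4 of the 10 tested mitochondrial genes above control, mt-Nd2, mt-Nd5, mt-Nd6 and mt-Co1, and lowered 1 of 81 nuclear members, Uqcrh. Of all tested genes, 4.86% were called in this comparison, 2.43% of them higher and 2.43% lower (share of all genes tested). All 10 mitochondrial changes were positive, with a median log2 fold change of 0.53 against -0.02 over all genes. In 8 of 10 the combination libraries lay above every control, which held for 16.3% of all genes. The nuclear median was -0.12, with 53 of 81 changes negative. Of the nuclear members 7 lay above every control and 17 below, where 15.8% of all genes lay below.

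Of the complex I core subunits, mt-Nd5 (ENSMUSG00000064367), a proton-pumping membrane subunit, stood at 2371, 1918 and 3176 CPM in controls, 2332, 2987 and 3309 with curcumin, 3767, 2768 and 3518 with swimming and 4194, 6163 and 4716 with the combination. Combination libraries lay above all others. Its log2 fold change from control was 1.01 ± 0.21 (SE, edgeR, adjusted p = 0.0266). mt-Nd2 (ENSMUSG00000064345, MT 3914 to 4951), another membrane subunit of the pump, stood at 3188, 2234 and 3300 CPM in controls, 2595, 2666 and 3313 with curcumin, 4273, 3372 and 4483 with swimming and 4074, 5659 and 4413 with the combination. Here swimming and combination overlapped, while both lay above every control. Its change with the combination was 0.70 ± 0.18 (SE, edgeR, adjusted p = 0.0449).

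mt-Nd6 (ENSMUSG00000064368), the membrane subunit encoded on the light strand, showed the largest change of any member. It stood at 129, 37.2 and 129 CPM in controls, 139, 140 and 205 with curcumin, 106, 87.8 and 149.5 with swimming and 263, 521 and 364 with the combination. Control 2 was the lowest and combination 2 the highest, and the combination libraries lay above all 9 others. The change was 1.96 ± 0.44 against control (adjusted p = 0.0377) and 1.74 ± 0.43 against swimming (adjusted p = 0.0417, edgeR). The remaining tested genes of the complex, mt-Nd1 at the quinone site and mt-Nd4, changed by 0.52 ± 0.15 (adjusted p = 0.0630) and 0.43 ± 0.16 (adjusted p = 0.107), values that did not pass.

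mt-Nd5 and mt-Nd6 lie on opposite strands and share 14 bases at their ends, which is why these 2 genes are shown. The last 30 bases of each, with the shared bases in capitals, read as follows.
mt-Nd5: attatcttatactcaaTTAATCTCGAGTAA
mt-Nd6: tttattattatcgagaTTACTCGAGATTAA
mt-Nd5 occupies MT 11742 to 13565 on the plus strand and mt-Nd6 MT 13552 to 14070 on the minus strand, each a single coding exon. The strand setting of the counting is not given in the sources used here, so light-strand RNA and other RNA from the region of mt-Nd6 cannot be told apart. As a percent of mt-Nd5 counts, mt-Nd6 was 5.42, 1.94 and 4.08 in controls, 5.96, 4.68 and 6.21 with curcumin, 2.81, 3.17 and 4.25 with swimming and 6.26, 8.46 and 7.72 with the combination. The combination libraries held the 3 highest values, with curcumin 3 just under the lowest of them.

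In complex III, cytochrome b was at 5975, 4796 and 6586 CPM in controls and 6817, 8096 and 6675 with the combination, a change of 0.31 ± 0.14 that did not pass (adjusted p = 0.166). In complex IV, mt-Co1 (ENSMUSG00000064351) was at 20780, 16768 and 21754 CPM in controls, 17227, 20862 and 20845 with curcumin, 28032, 26838 and 23383 with swimming and 26610, 32774 and 27469 with the combination. All libraries from mice that swam lay above the others, and swimming and combination overlapped. Its change with the combination was 0.55 ± 0.14 (adjusted p = 0.0463). The other core subunits, mt-Co2 and mt-Co3, changed by 0.42 ± 0.15 (adjusted p = 0.109) and 0.16 ± 0.20 (adjusted p = 0.622), and in complex V mt-Atp6 changed by 0.65 ± 0.20 (adjusted p = 0.0765).

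These calls depended on which libraries were fitted, as did the share of all genes called. Without control 2 the changes of mt-Nd2, mt-Co1, mt-Nd5 and mt-Nd6 were 0.54, 0.45, 0.86 and 1.57 (adjusted p = 0.0863, 0.0716, 0.0588 and 0.0503), and without combination 2 they were 0.55, 0.45, 0.84 and 1.67 (adjusted p = 0.176, 0.176, 0.129 and 0.142). With both left out they were 0.39, 0.35, 0.68 and 1.28, all uncalled. Of all tested genes, 2.29% were called without control 2, 0.0724% without combination 2 and 0.0581% with both left out. Without combination 1 the share was 0.145%, and without combination 3 it was 0.0289%. Over the 12 fits that left out 1 library, mt-Nd5 kept its call in 8, mt-Nd6 in 4 and mt-Nd2 and mt-Co1 in 3 each. The positive direction of these 4 changes held in every one of the 12 fits that left out 1 library. Among the 5 genes with no nuclear copy found, 3 were called in the fit of all libraries and the median was 0.70. Among the 5 tested genes with one, 1 was called (mt-Co1) and the median was 0.43. Of all tested genes 4.86% were called in that fit. Marker lists of other cells also moved, where 2.43% of all genes were called higher and 2.43% lower. Adipocyte genes summed to 18.4 to 27.2 CPM in controls and 34.6 to 38.0 with the combination, with 3 of 5 tested called higher. Of the endothelial genes 9 of 10 had positive changes with 1 called (282 to 424 CPM against 435 to 505). Fibroblast genes summed to 1042 to 3278 CPM in controls and 4236.5 to 4401 with the combination (6 of 9 positive, median 0.41, 0 called). Of 8 T cell genes 1 had a positive change, with a median of -0.53 and 0 called (49.7 to 109 CPM against 58.4 to 65.0). Of 11 tested neutrophil genes 1 had a positive change and 3 were called lower, with a median of -1.66 (785 to 1148 CPM against 762 to 791). None of 11 macrophage genes (median -0.45, 2213 to 4139 CPM against 2142 to 2296) or 12 skeletal muscle genes (median -1.50, 43.8 to 610 CPM against 128 to 135) had a positive change, and none was called. Of 8 tested tumour epithelial genes 4 had a positive change, with 0 called. The part of these marker lists in the mitochondrial changes was not tested.

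**Figure D3:**
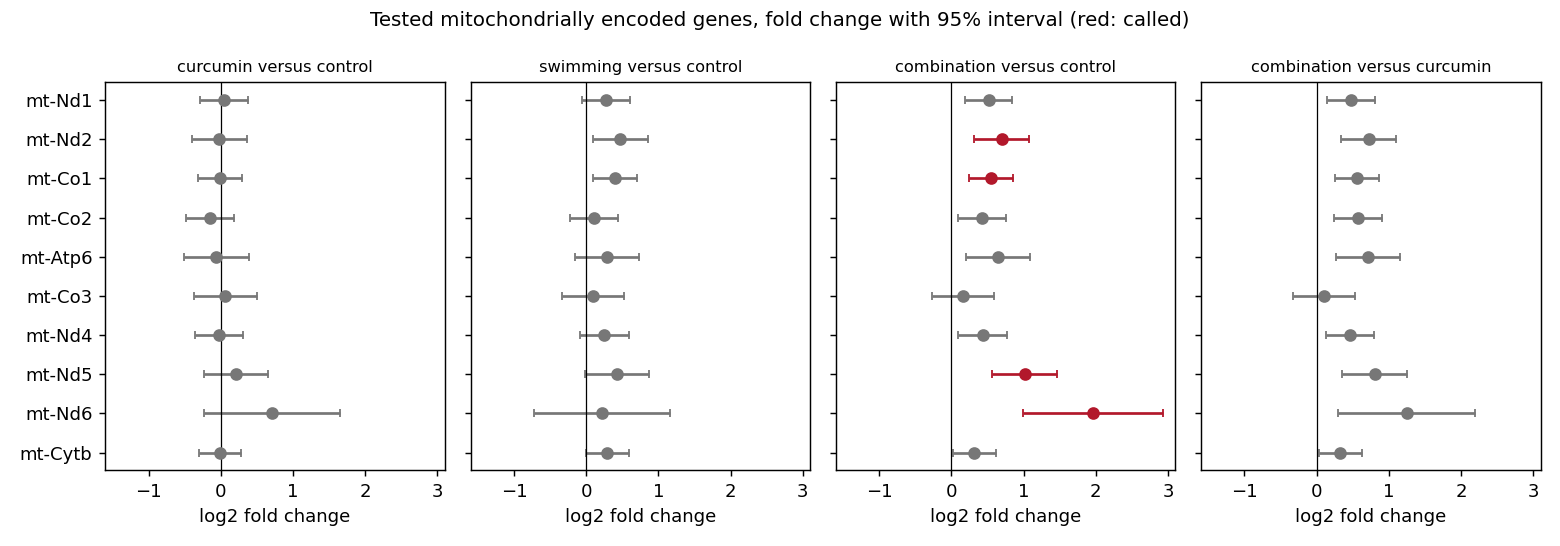
Log2 fold change with its 95% interval (edgeR, 12 libraries) of the 10 tested mitochondrially encoded genes in 4 comparisons; red points were called. Points scatter around 0 with curcumin alone, lie to the right with swimming and furthest right in the combination, where mt-Nd6 reaches 1.96.

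Swimming alone gave the same sign in all 10 tested genes with no call. The median change was 0.28 against -0.01 over all genes, of which 0.308% were called. mt-Nd2 (0.48 ± 0.18, adjusted p = 0.277) and mt-Co1 (0.40 ± 0.14, adjusted p = 0.259) had unadjusted p below 0.05 and lay above every control, as did 5.83% of all genes. Of the 81 nuclear members 6 lay below every control and 0 above, where 7.24% of all genes lay below. mt-Nd6 was close to control (0.22 ± 0.43, adjusted p = 0.888), and its sign turned without control 2 (-0.17) or swimming 3 (-0.02). Among cell markers, 0 of 10 endothelial (median -0.75), 0 of 9 fibroblast (median -0.22) and 1 of 12 skeletal muscle genes (median -1.16) had a positive change. Positive changes numbered 1 of 11 in macrophage (median -0.45), 2 of 8 in T cell, 6 of 11 in neutrophil and 4 of 5 in adipocyte genes. For tumour epithelial genes they numbered 6 of 8 (median 0.10). None of these markers was called, and their part was not tested.

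Curcumin alone showed no shift of the mitochondrial genes. Only 4 of 10 changes were positive, the median was -0.01, and the share of all genes called was 0. For mt-Co1 the change was -0.01 with a standard error of 0.14 (adjusted p = 0.985), while mt-Nd6 lay above every control at 0.71 ± 0.43 (adjusted p = 0.548). It was the only one of the 10 to do so, at a background of 7.41%. No nuclear member was called either, with 50 of 81 changes positive and a median of 0.03. Of the nuclear members 9 lay above every control and 1 below, where 7.22% of all genes lay below. Among cell markers, positive changes numbered 11 of 12 in skeletal muscle (median 0.62) and 9 of 9 in fibroblast genes. For macrophage genes they numbered 9 of 11 and for T cell genes 7 of 8. Fewer were positive in endothelial (1 of 10), neutrophil (3 of 11), adipocyte (2 of 5) and tumour epithelial genes (1 of 8, median -0.21). No marker was called, and their part was not tested.

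Against curcumin, the combination was higher for all 10 tested mitochondrial genes, with a median of 0.57 and no call at a background of 0.851% (0.359% higher and 0.491% lower). In 9 of 10 the combination libraries lay above all 3 curcumin libraries, which held for 18.6% of all genes. mt-Nd2 came nearest to a call (0.72 ± 0.18, adjusted p = 0.0706), then mt-Co1 (0.56 ± 0.14, adjusted p = 0.0792), mt-Nd5 (0.80 ± 0.21, adjusted p = 0.0842) and mt-Co2 (0.58 ± 0.15, adjusted p = 0.0868). This comparison does not use the controls, but the shared estimate of spread does: without control 2, 6 of 10 were called beside 5.17% of all genes. Fitted on these 2 groups alone, 7 of 10 were called beside 16% of all genes, and with a voom fit that weights each group 9 were called beside 14.2%. Of the cell markers, 0 of 11 macrophage genes had a positive change with 2 called lower, and 1 of 5 adipocyte genes was called higher. In the lists that follow 0 were called. Skeletal muscle genes had 0 of 12 positive (median -2.11, 439 to 516 CPM with curcumin against 128 to 135). Endothelial genes had 9 of 10 positive (median 0.63, 296 to 303 CPM against 435 to 505). T cell genes had 0 of 8 positive (median -0.73), neutrophil genes 2 of 11 (median -1.73) and fibroblast genes 5 of 9 (median 0.18). Tumour epithelial genes had 8 of 8 positive (median 0.17). The part of these lists was not tested.

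Against swimming, the combination raised mt-Nd6 alone among the members. The background was 6.66%, with 3.5% called higher and 3.15% lower. In 3 of 10 the combination libraries lay above every swimming library, as for 20.4% of all genes, and of the nuclear members 3 lay above and 11 below, where 20.2% of all genes lay below. The median of the 10 genes was 0.23, and mt-Nd5 was next at 0.58 ± 0.21 (adjusted p = 0.0948). Cytochrome b hardly differed (0.02 ± 0.14, adjusted p = 0.930). The mt-Nd6 call was lost in 9 of the 12 fits that left out 1 library, among them the one without combination 2 (1.45, adjusted p = 0.134). It held without control 2 (1.74, adjusted p = 0.00495) and with control 2 and combination 2 both left out (1.45, adjusted p = 0.0143). Markers of other cells moved in this comparison too: all 10 endothelial genes had positive changes and 8 were called higher, with a median of 1.28 (148 to 245 CPM with swimming, 435 to 505 with the combination). Of the neutrophil genes 1 of 11 had a positive change and 4 were called lower, with a median of -1.92 (897 to 939 CPM against 762 to 791). Of the fibroblast genes 8 of 9 had positive changes, with a median of 0.89 and 0 called (1437 to 2751 CPM against 4236.5 to 4401). In the other lists 1 of 5 adipocyte genes was called higher and 1 of 11 macrophage genes lower. Tumour epithelial genes had 4 of 8 positive with 0 called. The part of these lists was not tested.

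The interaction (the combination's change beyond the sum of the single treatments, log2) was positive for all 10 genes with a median of 0.23, with no member called against 0.249% of all genes (0.161% higher and 0.088% lower). For mt-Nd6 it was 1.03 ± 0.60 (adjusted p = 0.569). In the test of any difference among the 4 groups, mt-Nd2, mt-Co1, mt-Nd5 and mt-Nd6 were called and no nuclear member was, at a background of 5.64%. All comparisons with control share the same 3 controls, and those with the combination share its 3 libraries.

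**Figure D4:**
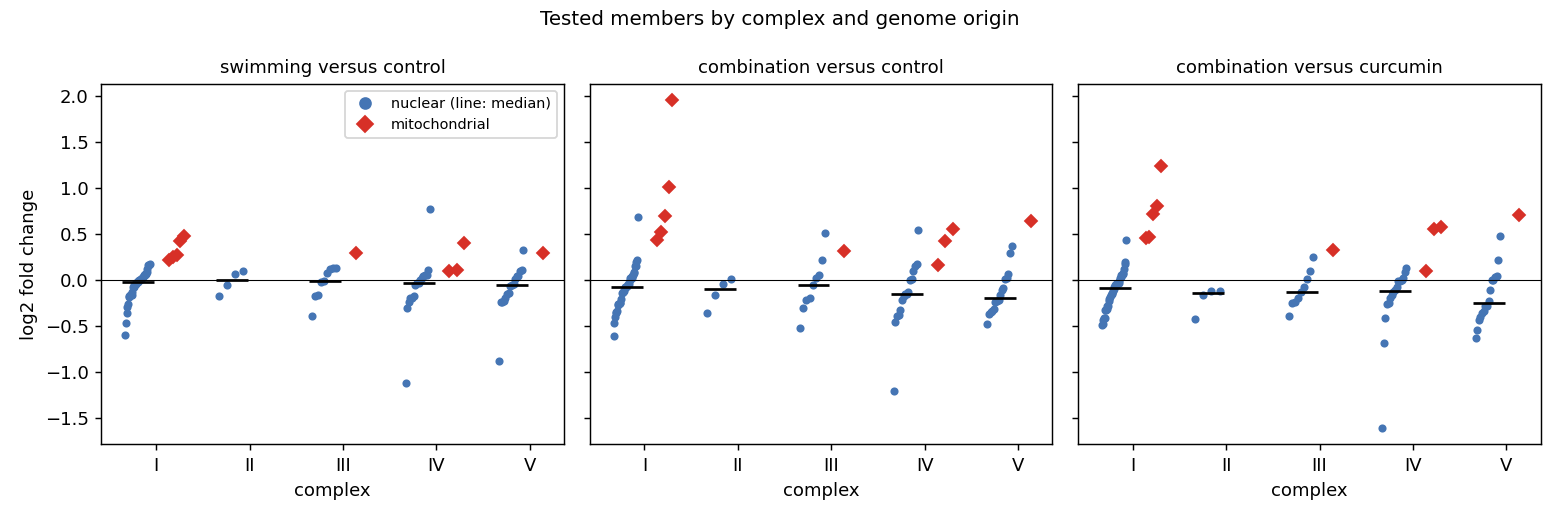
Log2 fold change of each tested member by complex, nuclear (blue, line at the median) and mitochondrial (red), in 3 comparisons. With the combination the mitochondrial genes lie above 0 in complexes I, III, IV and V while the nuclear medians lie below 0 in all 5 complexes.

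By complex, the nuclear medians were slightly below 0 in combination against control and slightly above 0 in curcumin against control (0.01 to 0.07). Differences between complexes were not tested. Complex II has no mitochondrial member. Against control, the nuclear medians with the combination were -0.08 in complex I (23 of 36 negative), -0.10 in II (3 of 4), -0.06 in III (5 of 9), -0.15 in IV (11 of 16) and -0.19 in V (11 of 16). The mitochondrial median minus the nuclear one was 0.66 in this comparison, 0.69 against curcumin, 0.31 for swimming against control, 0.31 against swimming and -0.04 for curcumin, where the SD between libraries of a group was 0.20. It fell to 0.37 for the combination against control without control 2 and combination 2. Against curcumin, 59 of 81 nuclear changes were negative and 32 lay below every curcumin library, while 18.5% of all genes did so.

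In complex III, Uqcrh (ENSMUSG00000063882, chromosome 4, 115924162 to 115932268 in the table), the small hinge protein that helps cytochrome c1 pass electrons to cytochrome c, was the only nuclear member called in any comparison. It was at 36.5, 49.4 and 46.0 CPM in controls, 35.8, 37.9 and 35.4 with curcumin, 39.3, 43.2 and 34.4 with swimming and 31.8, 32.04 and 27.8 with the combination. The combination libraries were the 3 lowest. The change from control was -0.53 ± 0.12 (adjusted p = 0.0377) and kept its call in 4 of 12 fits that left out 1 library. It was -0.43 without control 2 (adjusted p = 0.0807), -0.56 without combination 2 (adjusted p = 0.131) and -0.47 with both left out (adjusted p = 0.190). In the same complex the core protein Uqcrc1 was level (0.02 ± 0.08, adjusted p = 0.903), the Rieske protein Uqcrfs1 changed by -0.31 ± 0.13 (adjusted p = 0.151) and Uqcrb by 0.51 ± 0.17 (adjusted p = 0.0865). Of the Uqcrb transcript, 39.8% has a near-identical copy in other genes, so its value is uncertain.

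In complex I, Ndufs3, a core subunit of the peripheral arm, was at 24.8, 27.4 and 29.2 CPM in controls and 19.6, 20.6 and 21.3 with the combination, with no overlap, a change of -0.41 ± 0.11 that did not pass (adjusted p = 0.0554). Of its transcript, 75.7% has a near-identical copy in another gene, so this value is uncertain. The accessory subunit Ndufs6 changed the other way, by 0.69 ± 0.24 (adjusted p = 0.104). The 4 genes of complex II, all nuclear, included no call: Sdhd, a membrane anchor, changed by -0.36 ± 0.12 (adjusted p = 0.0833), the flavoprotein Sdha by -0.16 ± 0.08 (adjusted p = 0.222), the anchor Sdhc by -0.04 ± 0.10 (adjusted p = 0.803) and the iron-sulfur subunit Sdhb by 0.01 ± 0.10 (adjusted p = 0.959). For Sdhd the controls were at 50.8, 55.2 and 55.4 CPM and the combination at 43.6, 37.0 and 44.8, which do not overlap.

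In complex V, the 3 genes of subunit c of the rotor ring had negative values: -0.48 ± 0.14 for Atp5g1 (adjusted p = 0.0667), -0.37 ± 0.16 for Atp5g3 (adjusted p = 0.165) and -0.16 ± 0.12 for Atp5g2 (adjusted p = 0.422). Atp5g1 was at 25.9, 26.8 and 31.2 CPM in controls, 30.8, 33.5 and 29.5 with curcumin, 24.7, 27.2 and 19.4 with swimming and 23.3, 18.0 and 19.0 with the combination. The peripheral stalk subunit b, Atp5pb, had a positive value (0.29 ± 0.09, adjusted p = 0.0667), and the catalytic Atp5b was level at 0.01 ± 0.09 (adjusted p = 0.963).

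**Figure D5:**
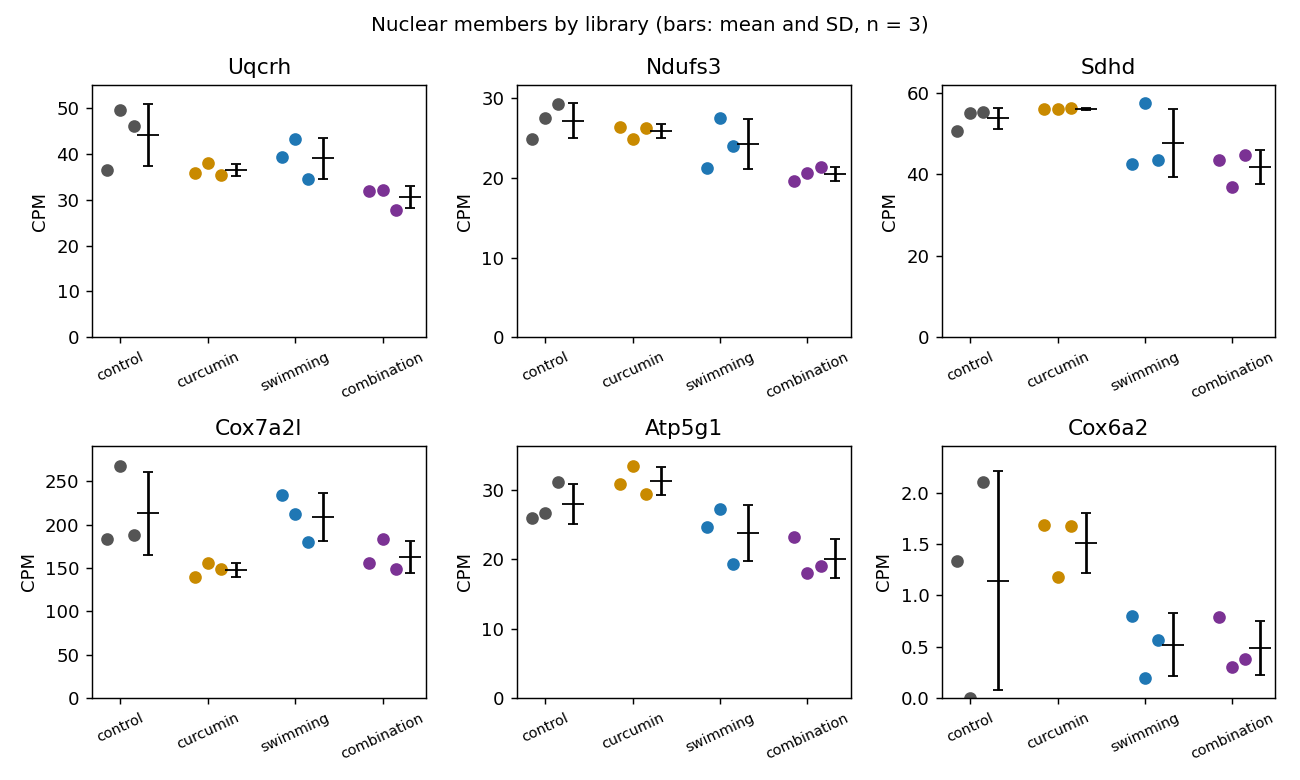
CPM of 6 nuclear members by group; points are libraries 1 to 3, bars the mean and SD (n = 3), and each axis starts at 0. Uqcrh, Ndufs3, Sdhd and Atp5g1 are lower in the combination than in control, of which only Uqcrh was called, and Cox6a2 is at 0 in control 2.

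The promoters of Uqcrh and Ndufs3, the only called nuclear member and the one of smallest p in complex I, are shown with the ETS-type letters CCGGAAG (either strand) in capitals. The sequences run from 250 bases before to 50 after the start in RefSeq's GRCm38.p6 annotation, and 70 of the 89 nuclear members had an entry. Uqcrh lies at chr4:116075021-116075320 and Ndufs3 at chr2:90904672-90904971, both on the minus strand. These GRCm38.p6 positions cannot be set against gene positions quoted from the deposited table, which differ for Uqcrh.
Uqcrh: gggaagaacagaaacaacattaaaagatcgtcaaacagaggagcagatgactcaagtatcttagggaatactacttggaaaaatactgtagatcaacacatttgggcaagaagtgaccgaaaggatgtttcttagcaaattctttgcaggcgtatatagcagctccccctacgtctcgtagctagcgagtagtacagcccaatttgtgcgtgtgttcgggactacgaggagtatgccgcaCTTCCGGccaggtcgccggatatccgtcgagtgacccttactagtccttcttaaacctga
Ndufs3: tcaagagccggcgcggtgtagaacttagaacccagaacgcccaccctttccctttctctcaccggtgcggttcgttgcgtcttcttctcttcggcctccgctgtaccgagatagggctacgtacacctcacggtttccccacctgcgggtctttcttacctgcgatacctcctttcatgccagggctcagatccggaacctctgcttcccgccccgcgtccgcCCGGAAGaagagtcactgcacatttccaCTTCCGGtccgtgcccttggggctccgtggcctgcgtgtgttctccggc
The ETS letters were found in 17 of the 70 members (24.3%) against 9.93% of 27025 genes with a promoter entry. A gene counted if any of its listed starts held the letters. The 27025 genes were not limited to those expressed here. The NRF1 letters GCATGCGC were found in 14.3% against 3.05%, and the YY1 letters AAGATGGCG in 10.0% against 1.64%, each on either strand. These matches describe the letters only.

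Isoform pairs of complex IV were mostly represented by their common form. Per length, Cox4i1 averaged 47.4 FPKM and Cox4i2, the form induced by low oxygen, 1.17. Cox6a1 averaged 196 FPKM against 1.37 for the muscle form Cox6a2, Cox7a2 22 against 0.473 for Cox7a1, Cox8a 185 against 0.245 for Cox8b, and Cox6b1 40.4 against 0.154 for the testis form Cox6b2. Cox6a2 had 22, 0 and 36 counts in controls, 28, 18 and 26 with curcumin, 12, 3 and 9 with swimming and 13, 5 and 6 with the combination. Its lowest control was control 2, which also had the lowest summed skeletal muscle markers (43.8 CPM), and the part of muscle in its values was not tested. The change of Cox6a2 was -1.21 ± 0.88 in the combination (adjusted p = 0.394). Cox7a2l, which takes part in joining complexes III and IV into supercomplexes, was at 183, 268 and 188 CPM in controls, 139, 156 and 149 with curcumin, 234, 212 and 180 with swimming and 156, 183 and 148 with the combination. Curcumin libraries lay below every control (-0.53 ± 0.15, adjusted p = 0.298), and combination 2 overlapped with control 1.

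Genes that make, maintain or process mitochondrial RNA and assemble the complexes showed few calls. In combination against control 4.86% of all tested genes were called, with 2.43% called lower. Against control the combination lowered 1 of 26 RNA processing and stability genes, Hsd17b10, a subunit of the enzyme that cuts the 5′ ends of mitochondrial tRNAs (-0.44 ± 0.10, adjusted p = 0.0364). It also lowered 1 of 9 assembly factors of complexes II and III, Uqcc1, which acts in the making of cytochrome b (-0.54 ± 0.11, adjusted p = 0.0230), and 1 of 23 of complex IV, Cox14 (-0.81 ± 0.18, adjusted p = 0.0340). None of 18 genes for mitochondrial transcription and its regulators, 15 for DNA maintenance, 18 complex I and 6 complex V assembly factors, 17 of the tricarboxylic acid cycle and 22 of import and carriers was called.

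Against swimming the combination raised the transcription regulators Yy1 (0.31 ± 0.08, adjusted p = 0.0411) and Pprc1 (0.68 ± 0.11, adjusted p = 0.0112), 2 of 18 tested. It raised the complex I assembly factor Ndufaf4 (0.74 ± 0.16, adjusted p = 0.0224). Hsd17b10 and Uqcc1 fell there too, as did the mitochondrial thymidine kinase Tk2 (-0.74 ± 0.16, adjusted p = 0.0229). Of the 10 genes induced by low oxygen, 2 (Ndufa4l2 and Cox4i2) are themselves members. From this list 3 fell at a background of 6.66%, with 3.15% of all genes called lower. They were the pyruvate dehydrogenase kinase Pdk1 (-1.002 ± 0.14, adjusted p = 0.00595), the mitophagy receptor Bnip3l (-0.47 ± 0.10, adjusted p = 0.0232) and the glucose transporter Slc2a1 (-0.88 ± 0.22, adjusted p = 0.0395). The median change of the 10 was -0.50. From control, 9 of these 10 had positive changes with swimming (median 0.43) and 1 of 10 with the combination (median -0.21), with none called in either. Against curcumin, Uqcc1 fell by 0.53 on the log2 scale (adjusted p = 0.0383), where 0.851% of all genes were called, 0.491% lower. No listed gene was called with curcumin or swimming alone against control.

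Over the 12 libraries, the 5 genes whose log2 CPM most resembled the mean of the mitochondrial genes, of 9464 candidates with a mean CPM of at least 10, were Rbm3 (Pearson r = 0.92), Elk3 (0.91), S100a11 (0.91), Glrp1 (0.91) and Lrrc8c (0.90). The points share the libraries and their scaling, so these values are descriptions.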

How the data were processed

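The authors' deposited table holds whole read counts and FPKM values per gene. Per the submitters' processing notes, the tools were cutadapt, TopHat2, HISAT2, HTSeq 0.9.1 (counting) and DESeq 1.30.0, and the build was GRCm39. The labels' protocol names HISAT2 2.0.5 and mm9, so the build is stated in 2 ways and gene coordinates are given as the table holds them. FPKM equalled count over length and library total for 184877 of 184877 values above 0 (relative tolerance 1e-05). FPKM served only to compare levels between genes.

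Groups came from sample titles. Genes kept by filterByExpr (minimum count 10, minimum total 15) were TMM-scaled and fitted in edgeR 4.0.16 (R 4.3.3) by quasi-likelihood with the robust option, all 12 libraries in 1 model (8 residual degrees of freedom), with Benjamini-Hochberg adjustment. The pipeline was tested on simulated data. Copies were sought in annotated transcripts with blastn 2.17.0. Replicate numbers did not pair the libraries.

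Named genes were all mitochondrial ones, called nuclear members, the highest and smallest-p member of each complex, the Sdh genes and isoform sets, and of each list the called members; others named (Ndufs6, Uqcrb, Uqcrfs1, Atp5pb) were chosen after their values were seen. A gene that the rule names is not reported here. Members and lists were chosen with earlier results of these data known. Alternatives were RLE scaling, library totals alone, scaling without mitochondrial genes, no low-count filter, mean counts of 50 or more, DESeq2 1.42.0, limma 3.58.1 (voom), only the groups compared, a replicate block, summed combination libraries and leaving out each library. Added after seeing the data were no robust option, leaving out control 2 and combination 2, and the 5 tested mitochondrial genes with no copy found.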

Additional observations from a re-analysis of the deposited data

How the results depend on the processing

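Calls for the mitochondrial genes depended on the settings more than their direction did. Each percent below is the share of all tested genes called in the same fit. In combination against control, 4 mitochondrial and 1 nuclear member were called (4.86%). DESeq2 called 7 and 6 (12.6%), voom 2 and 0 (2.95%), only the groups compared 0 and 0 (0.994%), the replicate block 1 and 0 (1.61%), summed combination libraries 0 and 0 (0%), and the fit without control 2 and combination 2 called 0 and 0 (0.0581%). In combination against curcumin (0 and 0, 0.851%), DESeq2 called 6 and 3 (5.13%), voom 9 and 13 (14.2%), only the groups compared 7 and 12 (16%), and library totals alone called 1 nuclear member (1.24%). In combination against swimming (1 and 0, 6.66%), no filter left 0 mitochondrial calls (4.42%), DESeq2 gave 2 and 1 (13.8%), voom 2 and 5 (20.5%), only the groups compared 2 and 2 (20.5%), the replicate block 0 (3.64%), summed libraries 0 (0%), and 1 nuclear member was called without control 2 and combination 2 (10.1%). For any difference (4 and 0, 5.64%), library totals alone gave 1 and 1 (5.71%), DESeq2 8 and 5 (19.9%), voom 0 mitochondrial (1.88%), the replicate block 0 (2.03%) and summed libraries 0 (0%), and 1 nuclear member was called without control 2 and combination 2 (8.42%). The mitochondrial minus nuclear median was 0.37 (from 0.66) against control and 0.14 (from 0.31) against swimming without those 2 libraries. The cause was not tested.

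Leaving out 1 library at a time gave 0 to 4 mitochondrial and 0 to 7 nuclear calls in combination against control, 0 to 6 and 0 to 3 against curcumin, 0 to 2 and 0 to 4 against swimming and 0 to 4 and 0 to 4 for any difference, while the share of all genes called ran from 0.0289% to 15.8%, 0.0217% to 5.17%, 0.225% to 19.5% and 0.203% to 18.5%. In curcumin against control, swimming against control and the interaction it gave 0 calls. The difference of medians ran from 0.52 to 0.74, 0.58 to 0.76 and 0.14 to 0.42 in the 3 combination comparisons in the same order, from 0.17 to 0.41 for swimming, from -0.19 to 0.05 for curcumin and from 0.17 to 0.48 for the interaction. In combination against control no mitochondrial gene was called without control 2 (2.29% of all genes called), combination 1 (0.145%), combination 2 (0.0724%) or combination 3 (0.0289%). There was 1 call without curcumin 1 (2.83%), curcumin 3 (1.3%) or swimming 1 (1.97%), and 2 without control 3 (2.35%) or curcumin 2 (3.86%). Nuclear calls in this comparison numbered 7 of 81 without control 1, where 15.8% of all genes were called. They numbered 3 without swimming 2 (5.52%) or swimming 3 (5.82%), and 0 without control 2, control 3, curcumin 1, curcumin 3, swimming 1 or any combination library.

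Signs turned only for values that were not called. Without control 2 and combination 2, mt-Nd6 in swimming was -0.172, mt-Cytb against swimming -0.0696, and in combination against control Sdhb was -0.0467, Cox4i2 0.167 and Sdhc 0.0232. With library totals alone Sdhb was -0.0159, Atp5b -0.0130 and Uqcrc1 -0.00357, and with voom Cox4i2 was 0.0158 and Cox6a2 0.130. Over the fits without 1 library, values ran from -0.0219 to 0.0641 for Atp5b, -0.519 to 0.208 for Cox4i2, -0.0680 to 0.0621 for Sdhb and -0.0212 to 0.0670 for Uqcrc1 in combination against control. They ran from -0.0599 to 0.240 for mt-Co2, -0.0414 to 0.181 for mt-Co3 and -0.172 to 0.466 for mt-Nd6 in swimming, -0.130 to 0.280 for mt-Co3 against curcumin, and -0.0169 to 0.147 for mt-Co3 and -0.0696 to 0.0748 for mt-Cytb against swimming. Adding the replicate block had no pairing behind it: same-numbered libraries correlated from -0.25 to 0.16. Depth was even, and counts of a few reads (mt-Nd3, mt-Nd4l, mt-Atp8, Atp5o) allow no comparison.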

Other observations

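Cytosolic ribosomal protein genes, a list outside the respiratory chain, had negative changes with the combination. Against control 0 of 32 had a positive change, with a median of -0.40 and 2 called lower, where 2.43% of all genes were called lower. They summed to 12330, 18400 and 14169 CPM in controls 1 to 3 and to 12030, 11135 and 11788 CPM with the combination, so that control 2 was the highest. With curcumin alone 0 of 32 had a positive change from control as well, with a median of -0.25 and 0 called, and with swimming 4 of 32 did, with a median of -0.08 and 0 called. Against swimming 1 of 32 was positive with a median of -0.33, and 1 was called lower, where 3.15% of all genes were called lower. Against curcumin 6 of 32 were positive with a median of -0.16 and 0 called. The tricarboxylic acid cycle genes stayed near 0, with a median of 0.03 against control and 10 of 17 positive.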
